A study of Mus musculus with 6 samples.

Results

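Smooth muscle contractile genes encode the actin, myosin, actin-binding and intermediate filament proteins that give smooth muscle cells their force. The group was set by name as Actg2, Acta2, Tagln, Myh11, Cnn1, Des and Myl9, and its members were found through the gene symbols of the platform annotation. Of these 7 genes, 6 were measured, with 1 probe each, among 18545 named genes. No probe of the table was annotated Myl9, the regulatory light chain of smooth muscle myosin, so the expression of Myl9 was not analysed here. Total RNA came from mouse epididymis, from mouse testis and from the stromal vascular fraction of adipose tissue (SVF), the cells left when adipocytes are removed from dissociated fat. The 3 tissues were compared in pairs on 6 arrays of 2 colours, every pair on 2 arrays that exchanged the Cy5 and Cy3 dyes, with 1 RNA sample per tissue. Strain, age, number of animals and pooling are not given in the sources.

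Smooth muscle contraction begins when calcium and calmodulin activate myosin light chain kinase, which phosphorylates the light chains of myosin II and lets its heads pull on actin filaments. Acta2 and Actg2 encode the vascular-type and enteric-type smooth muscle actins, and Myh11 encodes the smooth muscle myosin heavy chain. Tagln (transgelin, SM22) and Cnn1 (calponin) encode actin-binding proteins, and Des encodes desmin, an intermediate filament protein that muscle cells of all kinds use. The epididymal duct is wrapped by smooth muscle that moves spermatozoa toward the vas deferens, the seminiferous tubules of the testis are surrounded by a thin layer of contractile peritubular myoid cells, and the SVF contains mural cells of the adipose vessels. Serum response factor with its partner myocardin drives many of these genes through CArG boxes in their promoters.

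Values are log2 ratios of the tissue named first over the tissue named second, given first for the array that carried the first-named tissue in Cy5 and then for the array that carried it in Cy3. The deposited logarithms were read as log2 and as Cy5 over Cy3, a scale and direction that are likely but not stated. The column medians as deposited lay between 0.01 and 0.11, so no array was strongly shifted. Across the named genes the 2 arrays of a pair correlated, once the exchanged array had its sign turned, with Pearson's r of 0.81 for epididymis over testis, 0.71 for epididymis over SVF and 0.88 for testis over SVF, and genes are not independent replicates. Because there was 1 RNA sample per tissue, no test between tissues was possible and no p-value is given. Below, higher in a tissue means a ratio of at least 2-fold in that direction on both arrays of the pair. The SD over the 2 arrays (n = 2 hybridisations) covers dye and hybridisation error and leaves out differences between animals. In whole tissue RNA, fewer cells of a type and less RNA per cell cannot be told apart. Signal over background was not analysed here, so a member may be near background in a tissue where it is low.

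All 6 measured members had a ratio above 0 on both arrays when epididymis was set against testis, and all 6 also when epididymis was set against SVF. Among all named genes these shares were 37.9% and 38.3%. In contrast, the place of testis against SVF differed among the members. Acta2, Tagln and Myh11 were lower in testis than in SVF, Actg2 was far higher in testis than in SVF, and Cnn1 and Des did not reach 2-fold on both arrays in any comparison.

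**Figure D1:**
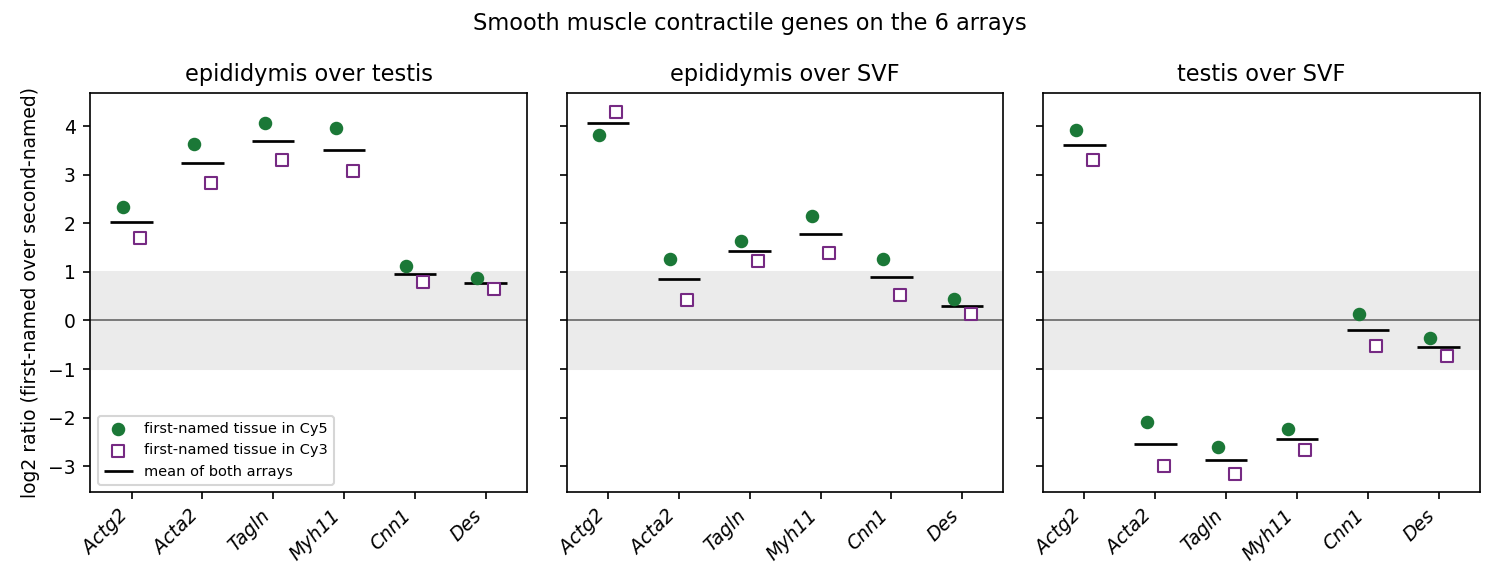
Log2 ratio of each measured member on both arrays of each pair of tissues, with the first-named tissue in Cy5 (filled circles) or Cy3 (open squares) and the mean of the 2 arrays (bars); the grey band marks changes under 2-fold. Actg2 sits at 3.93 and 3.30 in testis over SVF, while Acta2, Tagln and Myh11 sit between -2.09 and -3.16.

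The first comparison asked which contractile genes distinguish the muscle-coated epididymis from testis. Tagln, Myh11, Acta2 and Actg2 were higher in epididymis, none was higher in testis, and Cnn1 and Des did not reach the 2-fold rule. This is 4 of 6 members, against 14.3% of all named genes higher in epididymis and 18.0% higher in testis. The median of the members was 2.63, against 0.00 over all named genes.

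The thin filament genes came first by role. Acta2 had ratios of 3.64 and 2.83 in epididymis over testis (3.24 ± 0.58, n = 2), a 9.42-fold difference. Actg2 had ratios of 2.33 and 1.71 (2.02 ± 0.44, n = 2), a 4.06-fold difference. Both actins were thus higher in epididymis on either dye assignment, Acta2 by the larger amount. Myh11, the motor of the thick filament, had ratios of 3.96 and 3.07 (3.52 ± 0.63, n = 2), which is 11.5-fold and rank 230 of 18545 genes from the highest.

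Among the actin-binding proteins, Tagln and Cnn1 stood apart. Tagln had ratios of 4.08 and 3.31 (3.70 ± 0.54, n = 2), a 13.0-fold difference at rank 180, the highest of the 6 members. Cnn1 had ratios of 1.12 and 0.78 (0.95 ± 0.24, n = 2), and its lower array fell short of 2-fold. Desmin, Des, was closest to no difference, with 0.88 and 0.65 (0.77 ± 0.16, n = 2). Cnn1 and Des were above 0 on both arrays, and 81.2% and 77.4% of named genes had a lower ratio than Cnn1 and Des.

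The second comparison set epididymis against SVF. Actg2, Myh11 and Tagln were higher in epididymis, none of the 6 was higher in SVF, and Acta2, Cnn1 and Des did not reach the rule. This is 3 of 6 members, against 10.2% of all named genes higher in epididymis and 8.68% higher in SVF. The median of the members was 1.17, against 0.07 over all named genes. On the array with epididymis in Cy5 alone, 5 members reached 2-fold, and on the array with epididymis in Cy3 alone 3 did. The shares above hold for both arrays together. No share of all named genes is given for a single array, so these last counts have no background.

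The actins separated by size here. Actg2 had ratios of 3.83 and 4.30 in epididymis over SVF (4.07 ± 0.33, n = 2), a 16.8-fold difference at rank 102 of 18545. Acta2 had ratios of 1.28 and 0.43 (0.85 ± 0.60, n = 2), so that its arrays fell on either side of 2-fold. Myh11 lay between the actins with 2.16 and 1.39 (1.77 ± 0.54, n = 2), or 3.42-fold.

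Tagln had ratios of 1.64 and 1.22 (1.43 ± 0.29, n = 2), or 2.70-fold. Cnn1, with 1.28 and 0.52 (0.90 ± 0.53, n = 2), gave almost the same pair of values as Acta2, the difference of the 2 genes on the same array being 0.00 and 0.09. Des, with 0.45 and 0.13 (0.29 ± 0.23, n = 2), was the smallest difference of any member against SVF in this comparison.

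The third comparison set testis against SVF. Actg2 was higher in testis, Acta2, Tagln and Myh11 were higher in SVF, and Cnn1 and Des were within 2-fold. The counts are 1 of 6 and 3 of 6, against 20.7% of all named genes higher in testis and 16.0% higher in SVF. The median of the members was -1.50, against 0.00 over all named genes, and Actg2 alone of the 6 had a mean ratio above 0.

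Actg2 had ratios of 3.93 and 3.30 in testis over SVF (3.62 ± 0.44, n = 2), a 12.3-fold difference. Acta2 had ratios of -2.09 and -3.01 (-2.55 ± 0.65, n = 2), which is 5.85-fold lower in testis. The actins lay on opposite sides of 0 on both arrays. On the same array Actg2 exceeded Acta2 by 6.02 and 6.31 (6.17 ± 0.20, n = 2), a difference with a smaller SD than either actin's own ratio.

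Tagln had ratios of -2.61 and -3.16 in testis over SVF (-2.89 ± 0.39, n = 2), 7.39-fold lower in testis. Myh11 had ratios of -2.24 and -2.66 (-2.45 ± 0.29, n = 2), 5.47-fold lower in testis. Acta2, Tagln and Myh11 therefore fell in the same range, between -2.09 and -3.16 on single arrays. Cnn1 had 0.12 and -0.52 (-0.20 ± 0.46, n = 2), which differ in sign between arrays, and Des had -0.37 and -0.73 (-0.55 ± 0.26, n = 2).

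The dye assignment moved with the values. In 17 of 18 combinations of a member and a pair, the array with the first-named tissue in Cy5 gave the higher ratio, the exception being Actg2 in epididymis over SVF. The same difference between arrays had a median of 0.20, 0.14 and 0.16 over all named genes in the 3 comparisons, and it reached 0.91 for Acta2 in testis over SVF. With these medians above 0, most named genes went the same way as the members, and their exact share is not given. The 18 combinations come from 6 members with 1 probe each, so they are not independent. The mean over a dye swap carries both orientations equally.

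To place the 3 tissues on 1 scale, a least-squares fit over the 6 arrays with a dye term gave each gene a relative level in each tissue, with the mean of the 3 tissues at 0 and an SE from 3 residual degrees of freedom among hybridisations. Epididymis was the highest tissue for all 6 members, against 27.9% of all named genes. Acta2, Tagln, Myh11, Cnn1 and Des shared the order epididymis, SVF, testis, and Actg2 alone among the 6 had the order epididymis, testis, SVF.

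The Acta2 levels were 1.36 in epididymis, -1.93 in testis and 0.57 in SVF, each with an SE of 0.03. Tagln stood at 1.71, -2.19 and 0.48 in epididymis, testis and SVF (SE 0.10), and Myh11 at 1.76, -1.99 and 0.23 in the same tissues (SE 0.12). For these 3 genes every neighbouring pair of tissues differed by more than 3 times the SE of the difference in this fit. The smallest of these gaps, 0.80 ± 0.05 (SE) between epididymis and SVF for Acta2, nevertheless rests on direct ratios that were 1.28 on 1 array and 0.43 on the other.

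Cnn1 had levels of 0.62 in epididymis, -0.38 in testis and -0.23 in SVF (SE 0.05), and its last gap, SVF over testis, was 0.15 ± 0.08 (SE), which is less than 3 times its SE. The direct ratios of Cnn1 in this pair differed in sign between arrays. Des had 0.35, -0.44 and 0.09 in epididymis, testis and SVF (SE 0.02), with gaps of 0.27 between epididymis and SVF and 0.52 between SVF and testis, the narrowest range of the 6 members.

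Actg2 had levels of 2.03 in epididymis, 0.53 in testis and -2.56 in SVF, with an SE of 0.28 that was the largest among the members. Its 3 direct ratios did not close the loop. The ratio of epididymis over SVF minus the sum of epididymis over testis and testis over SVF was -1.57, and 2.38% of named genes had a gap at least as large in size. The fit gave 1.50 ± 0.48 (SE) for epididymis over testis, where the direct mean was 2.02. For the other members the gap was between 0.08 for Des and 0.71 for Myh11, and the SD over all named genes was 0.57.

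**Figure D2:**
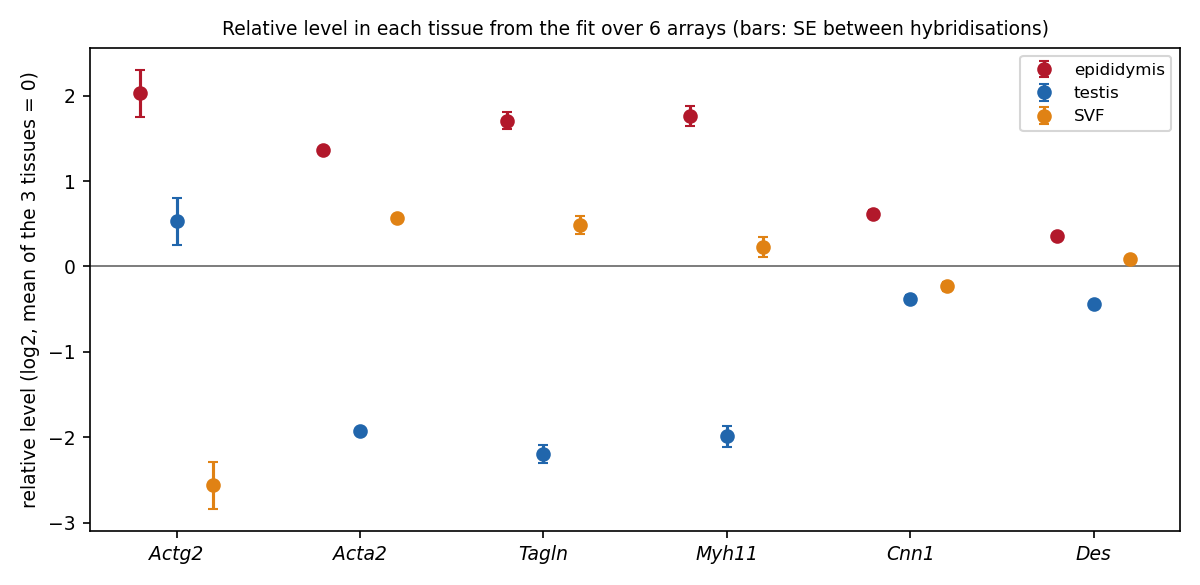
Relative log2 level of each member in epididymis, testis and SVF from the fit over 6 arrays, with the mean of the 3 tissues at 0 and bars of SE between hybridisations. Epididymis is the top point for each gene, and SVF is the bottom point for Actg2 at -2.56 and lies between the other tissues for Acta2, Tagln and Myh11.

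By the size and order of their ratios the members were read as 3 profiles, without a clustering rule. Cnn1 and Des had the same order of tissues in the fit as Acta2, Tagln and Myh11, with smaller differences. Tagln and Myh11 were the closest pair, with a root mean square difference of 0.35 over the 6 arrays, and Acta2 was 0.50 from Tagln and 0.58 from Myh11. Cnn1 and Des were 0.45 apart and at least 1.88 from Acta2, Tagln and Myh11. Actg2 was 2.95 from Cnn1, its nearest member, and 4.09 from the other smooth muscle actin, Acta2. These distances describe these 6 hybridisations of 3 RNA samples, and the same RNAs are behind every point.

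By the 2-fold rule in all 3 pairs, Tagln and Myh11 had the full order epididymis over SVF over testis, which 0.696% of named genes met, and Actg2 had the full order epididymis over testis over SVF, which 0.297% met. Actg2, Tagln and Myh11, 3 of 6 members, were higher in epididymis than in both other tissues, against 4.34% of named genes. Acta2, Tagln and Myh11, also 3 members, were lower in testis than in both other tissues, a pattern met by 7.97% of named genes.

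Promoter sequences are shown for Acta2, Cnn1 and Des, because these 3 of the 6 measured members had an entry in the RefSeq promoter table of build GRCm38.p6. They are shown with Acta1, the skeletal muscle actin described with the paralogues. Each line gives 250 bases upstream of the annotated start, 5′ to 3′ on the strand of the gene, with capitals marking matches to the CArG box, either in its canonical form or with 1 G or C allowed in its A/T core. The motif reads alike on both strands. The windows are chr19:34255374-34255623 on the minus strand for Acta2, chr9:22099003-22099252 on the plus strand for Cnn1, chr1:75360042-75360291 on the plus strand for Des and chr8:123894776-123895025 on the minus strand for Acta1.
Acta2: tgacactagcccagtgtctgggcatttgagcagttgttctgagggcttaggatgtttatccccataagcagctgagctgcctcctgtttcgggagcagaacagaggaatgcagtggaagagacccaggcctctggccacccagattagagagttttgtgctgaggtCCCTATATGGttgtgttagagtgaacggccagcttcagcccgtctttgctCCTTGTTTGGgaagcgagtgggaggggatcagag
Cnn1: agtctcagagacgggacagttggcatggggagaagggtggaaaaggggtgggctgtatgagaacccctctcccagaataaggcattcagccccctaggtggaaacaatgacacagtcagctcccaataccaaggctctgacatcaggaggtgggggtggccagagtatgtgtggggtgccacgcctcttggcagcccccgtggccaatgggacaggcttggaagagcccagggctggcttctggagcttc
Des: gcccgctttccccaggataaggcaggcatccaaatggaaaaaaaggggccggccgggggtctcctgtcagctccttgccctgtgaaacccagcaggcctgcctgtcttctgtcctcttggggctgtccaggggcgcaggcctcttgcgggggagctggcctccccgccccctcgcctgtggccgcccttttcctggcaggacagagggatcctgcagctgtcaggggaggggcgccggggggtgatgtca
Acta1: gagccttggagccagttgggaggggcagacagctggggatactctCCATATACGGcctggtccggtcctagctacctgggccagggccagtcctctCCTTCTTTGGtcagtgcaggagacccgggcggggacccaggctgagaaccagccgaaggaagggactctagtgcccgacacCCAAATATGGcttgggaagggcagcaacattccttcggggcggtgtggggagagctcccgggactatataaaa

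Acta2 had 2 matches of the relaxed form, at 84 to 75 and at 34 to 25 bases before the start, and no canonical match. Acta1 had 3 matches, of which the 1 nearest the start, at 73 to 64 bases, was canonical. Cnn1 and Des had none in this window, which says only that these letters are not there. Myl9, the member without a probe, is not printed above. It had a canonical match at 161 to 152 bases and a relaxed match at 99 to 90 bases. Of 32851 promoters of the same length, 1.47% held a canonical match, 8.59% a match of either form and 0.67% at least 2 matches. A match is a description of the sequence and not a measured binding site.

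The wider contractile apparatus was read from lists of genes. Counts of these and later lists stand against the shares over all named genes. In epididymis over testis, 14.3% were higher in epididymis and 18.0% in testis. In epididymis over SVF, 10.2% were higher in epididymis and 8.68% in SVF. In testis over SVF, 20.7% were higher in testis and 16.0% in SVF. Of 12 smooth muscle markers, the members included, 11 were measured, and 5 were higher in epididymis than in testis, 4 were higher in epididymis than in SVF, and in testis over SVF 1 was higher in testis and 5 in SVF, with none in the opposite direction in the first and second pairs. Most of these calls are the members themselves, and of the 5 other markers Cald1 alone met the rule in epididymis over testis, while Smtn, Lmod1, Synpo2 and Tpm2 did not. Of 25 other smooth muscle contractile and cytoskeletal genes, 24 were measured, and 12 of these were higher in epididymis than in testis and 1 was higher in testis, with a median of 1.53. Among the 12, Flna averaged probes at 0.61, 3.77 and 0.30, and Pgm5 probes at 3.47 and -0.04. Against SVF, 5 were higher in epididymis and 3 lower (median 0.30), and for testis over SVF 2 were higher in testis and 11 lower (median -1.28). Like that of Acta2, Tagln and Myh11, the median of this list was above 0 in epididymis over testis and below 0 in testis over SVF.

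Cald1, which encodes the actin-binding protein caldesmon, had the largest ratio of this list in epididymis over testis and in epididymis over SVF among the genes higher in epididymis. It was 3.96 and 4.17 in epididymis over testis (4.07 ± 0.14, n = 2), 2.64 ± 0.30 in epididymis over SVF and -2.13 ± 0.21 in testis over SVF. The order of Cald1 was thus that of Tagln and Myh11. Pdlim3, which encodes an actinin-associated LIM protein, had 3.30 ± 0.34, 1.65 ± 0.11 and -1.95 ± 0.07 in the same 3 comparisons. Tpm1, a tropomyosin gene, had 3.29 ± 0.68, 1.04 ± 0.55 and -2.73 ± 0.43. Filip1l, by contrast, was lower in epididymis than in SVF, at -2.89 ± 0.09, and stood at 2.58 ± 1.24 in epididymis over testis.

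Mylk, the myosin light chain kinase gene, was higher in epididymis than in testis (2.57 and 2.59) and than in SVF (2.39 and 2.29), and the testis over SVF ratio was -0.21 and 0.00. Mylk thus shared the place of epididymis with the members but did not separate testis from SVF. Of the 16 measured genes of myosin light chain phosphorylation and RhoA signalling, a list that shares Mylk with the last, 5 were higher in epididymis than in testis and 3 were lower (median 0.39). Against SVF 2 were higher in epididymis and 2 lower (median -0.09), and for testis over SVF 4 were higher in testis and 6 lower (median -0.69). Calml3, a calmodulin-like gene of epithelia, was 3.74 ± 0.42 in epididymis over testis, and Arhgef12, a RhoA exchange factor, was 2.28 ± 0.09. Prkg1, the cGMP-dependent kinase that relaxes smooth muscle, was lower in epididymis than in testis at -4.44 ± 0.22, whereas epididymis over SVF stood at 1.35 and 0.99.

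Regulators of the programme had a median near that of all genes in epididymis over testis. Of 17 measured transcriptional and Notch pathway regulators, 3 were higher in epididymis than in testis and 2 in testis (median -0.06), none was higher in epididymis than in SVF and 6 were higher in SVF (median -0.60), and 1 was higher in testis and 5 in SVF in the third pair (median -0.41). Klf4, a repressor of the contractile genes in cultured smooth muscle, was lower in epididymis than in testis (-3.37 ± 0.82) and than in SVF (-3.40 ± 0.97). Notch3, a receptor of mural cells, was 2.00 ± 0.18 in epididymis over testis and -1.27 ± 0.32 in epididymis over SVF. Mef2c stood at -2.29 ± 0.19 in epididymis over SVF, and Jag1, a Notch ligand, at -2.98 ± 1.01 in epididymis over testis. The coactivator Myocd and the factor Srf, named after their values were seen, differed. Myocd stood at -0.27 and 0.18 in epididymis over testis and -0.86 and -0.33 in epididymis over SVF, within 2-fold on all 4 arrays. Srf stood at 1.32 and 1.59 in epididymis over testis and at -1.29 and -1.02 in epididymis over SVF, so it was higher in epididymis than in testis and lower than in SVF.

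Of 23 measured channels and receptors of smooth muscle, 5 were higher in epididymis than in testis and 2 lower (median 0.21), 1 was higher in epididymis than in SVF and 4 lower (median -0.24), and 1 was higher in testis than in SVF and 6 lower (median -0.44). P2rx1, the ATP-gated channel of contraction in the vas deferens, was 4.52 and 2.54 in epididymis over testis (3.53 ± 1.40, n = 2) and 2.39 ± 1.19 in epididymis over SVF. It was the 1 gene of this list that was higher in epididymis than in SVF. The endothelin receptor gene Ednrb stood at -4.99 ± 0.48 in epididymis over SVF, the angiotensin receptor gene Agtr1a at -3.51 ± 0.57 and the vasopressin receptor gene Avpr1a at -2.88 ± 0.70.

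**Figure D3:**
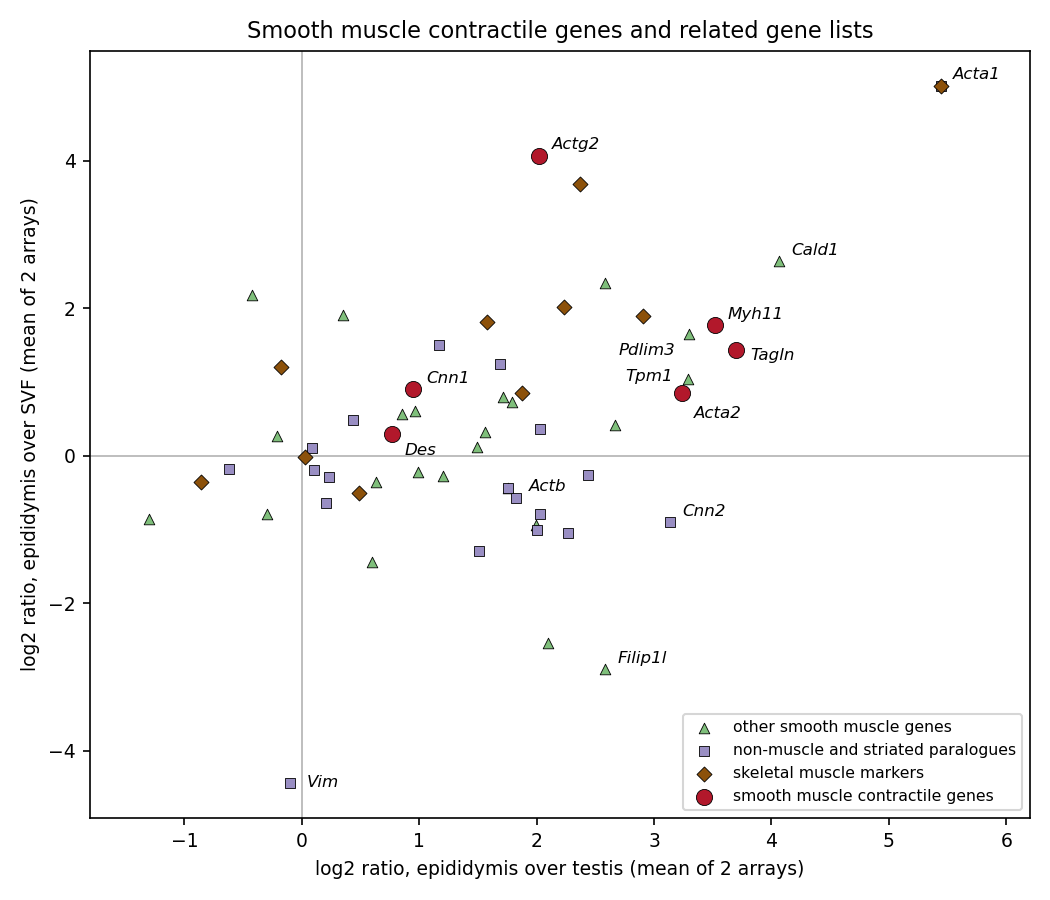
Mean log2 ratio of epididymis over testis (horizontal axis) and of epididymis over SVF (vertical axis) for the members, other smooth muscle genes, paralogues and skeletal muscle markers, 1 point per gene. Myh11, Tagln and Acta2 lie beside Pdlim3 and Tpm1, Actg2 lies apart at 2.02 and 4.07, and Acta1 lies at 5.44 and 5.02.

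Paralogues of the members in non-muscle and striated cells were set beside them. Of 19 measured, 12 were higher in epididymis than in testis and none in testis (median 1.69), 3 were higher in epididymis than in SVF and 2 lower (median -0.28), and none was higher in testis than in SVF and 10 were lower (median -1.43). Myh9, counted in the first and last pairs, averaged probes at 3.85 and 0.21 in epididymis over testis and at -5.34 and -0.19 in testis over SVF. Calponin 2, Cnn2, was 3.14 ± 0.06 in epididymis over testis and -3.60 ± 0.19 in testis over SVF, both larger in size than the values of Cnn1. Transgelin 2, Tagln2, was 2.43 ± 0.31 and -2.50 ± 0.08 in these pairs. Unlike Tagln, neither gene was higher in epididymis than in SVF, where Cnn2 stood at -0.90 ± 0.05 and Tagln2 at -0.27 ± 0.32. The mesenchymal filament gene Vim was -4.44 ± 1.46 in epididymis over SVF and -0.10 ± 0.75 in epididymis over testis.

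Actb, the non-muscle beta-actin often used as a reference gene and named after its values were seen, was annotated on 305 probes. Their mean was 1.83 in epididymis over testis, with an SD of 0.26 over probes, -0.57 ± 0.10 in epididymis over SVF and -2.31 ± 0.24 in testis over SVF. In testis over SVF, Actb was thus close to Acta2 at -2.55, whereas in epididymis over SVF the signs of Actb and Acta2 were opposite. On a single array the SD over these probes was between 0.20 and 0.34. The spread between spots of a member was not measured, since each had 1 probe.

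Acta1, the skeletal muscle actin, had the largest epididymis ratio among the paralogues and the members. It was 5.45 and 5.43 in epididymis over testis (5.44 ± 0.01, n = 2), a 43.4-fold difference, and 5.39 and 4.64 in epididymis over SVF (5.02 ± 0.53, n = 2), a 32.3-fold difference. In testis over SVF it was -0.41 and -1.27. Actin genes are similar in coding sequence, and the probe sequences were not used here, so the part of cross-hybridisation in the Acta1, Acta2 and Actg2 values was not tested.

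Markers of other cell types are given for the whole of each list, whichever way they went. Of 10 skeletal muscle markers, 6 were higher in epididymis than in testis and 5 than in SVF, none was higher in testis or SVF in these pairs, and the medians were 1.73 and 1.51. Besides Acta1 these included Tnnc2 (2.90 ± 0.58 and 1.89 ± 0.29) and Tnnt3 (2.23 ± 0.97 and 2.01 ± 0.31), which encode troponins of fast muscle, and Myh4 (2.37 ± 0.84 and 3.68 ± 0.97), a fast myosin heavy chain gene. Ckm, Actn3, Myh1 and Atp2a1 met the rule in neither pair, and Actn3 stood below 0 in both (-0.85 ± 0.17 and -0.36 ± 0.33). In testis over SVF 1 of the 10 met the rule, Tnnc2, which was higher in SVF (median -0.24). Of 5 cardiac markers, 2 were higher in epididymis than in testis and 1 in testis, with 1 in each direction against SVF. In testis over SVF, 2 were higher in testis and 1 lower. The cardiac medians were 0.11, -0.62 and 0.40 in epididymis over testis, epididymis over SVF and testis over SVF. Desmin is shared by all muscle types, so its level does not mark smooth muscle alone, and the part of striated muscle in the epididymal RNA was not tested.

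All 8 epithelial markers were higher in epididymis than in testis (median 3.05) and 7 of 8 were higher than in SVF (median 3.60), with Epcam at 4.38 ± 1.69 in epididymis over SVF. Both medians were larger than those of the members, 2.63 and 1.17. In testis over SVF 2 epithelial markers were higher in each tissue (median -0.74). Of 6 germ cell markers, 5 were higher in testis than in SVF (median 2.84), none was higher in SVF, and 2 were lower in epididymis than in testis (median -1.96). In epididymis over SVF 3 germ cell markers were higher in epididymis (median 1.66).

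Markers of stromal and vascular cells had medians below 0 in both ratios over SVF. Of 6 fibroblast and mesenchymal progenitor markers, 5 were higher in epididymis than in testis (median 2.92), 4 were lower in epididymis than in SVF (median -2.27), and all 6 were lower in testis than in SVF (median -4.00). Of 5 measured pericyte markers, 2 were higher in epididymis than in testis (median 0.52), 3 were lower in epididymis than in SVF (median -1.27) and 3 were lower in testis than in SVF (median -2.07). Pdgfrb, a receptor gene of this list, was -3.62 ± 0.20 in epididymis over SVF and -5.02 ± 0.19 in testis over SVF. Of the same list, Rgs5 stood at -0.05 and 0.05 and Cspg4 at 0.10 and 0.04 in epididymis over SVF.

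Of 6 endothelial markers, 1 was higher in epididymis than in testis (median 0.34), 4 were lower in epididymis than in SVF (median -2.20) and 4 were lower in testis than in SVF (median -2.15). All 5 measured macrophage markers were lower in epididymis than in SVF (median -3.15) and lower in testis than in SVF (median -4.22), and 2 were higher in epididymis than in testis (median 1.18). In epididymis over SVF, the medians of the pericyte, fibroblast, endothelial and macrophage lists were all below 0. Among the members, Actg2, Tagln and Myh11 were higher in epididymis in that pair, and Acta2, Cnn1 and Des did not reach the rule. The part of these cell types in the values of the members was not tested.

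**Figure D4:**
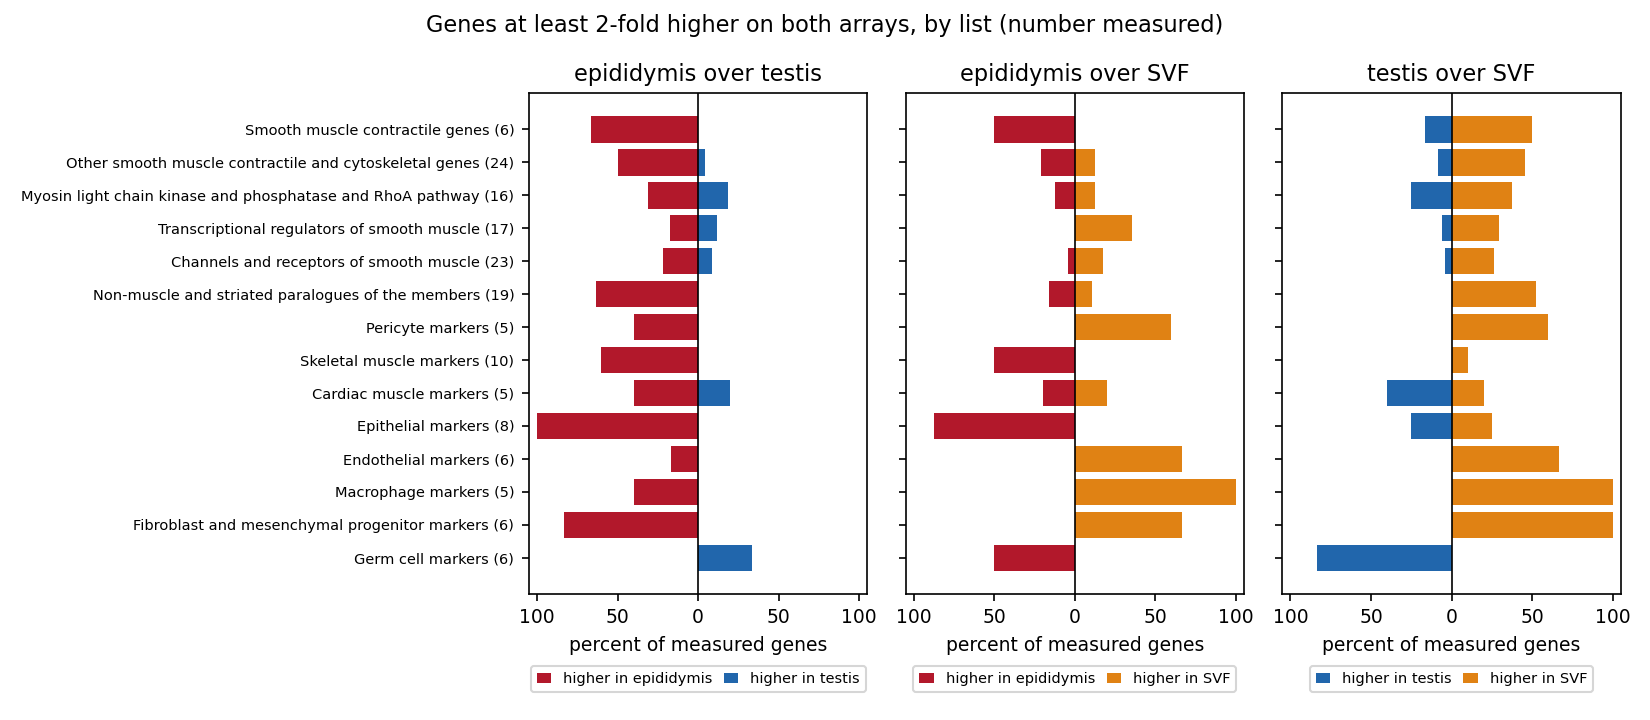
Percent of the measured genes of each list that were at least 2-fold higher on both arrays in the first-named tissue (left of 0) or the second-named tissue (right of 0), with the number measured in brackets. For the members these are 4 and 0 of 6 genes in epididymis over testis, 3 and 0 in epididymis over SVF, and 1 and 3 in testis over SVF.

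Genes with the most similar profile were found by the root mean square difference of the 6 ratios, with the 3 nearest named genes for each member. Tagln was nearest to Cd9, a tetraspanin gene, at 0.13, to Tpd52 at 0.20 and to Glul, the glutamine synthetase gene, at 0.23. Acta2 was nearest to Dpm3 at 0.14, to Ttc32 at 0.18 and to Adgrg1, an adhesion receptor gene, at 0.18. Myh11 was nearest to Ecrg4, 2010315B03Rik and Glul, at 0.30 to 0.32. Glul was the gene that came up for more than 1 member.

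Actg2 had no neighbour as close as those of the other members, its nearest being Cst12, a cystatin gene, at 0.48, Dapl1 at 0.52 and Pdzk1 at 0.71. Cnn1 was nearest to Mfrp, Tcp11l1 and Pex7, at 0.12 to 0.14, and Des to Pin4, Sec63 and Med20, at 0.06 to 0.08, in the part of the table where many genes have small ratios. Around the median profile of the 6 members the nearest genes were Urod at 0.11, Fkbp5 at 0.14, Bckdhb at 0.18, Sgpp1 at 0.19, Acot13 at 0.22 and Qdpr at 0.22. None of these genes stood on the lists of muscle or marker genes.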

How the data were processed

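RNA of 3 mouse tissues was compared on 6 arrays of 2 colours. The values the authors deposited, for 25344 probes on each array, were read as log2 of Cy5 over Cy3. Neither the log base and direction nor the background correction and normalization behind them is stated in the labels. Per the labels, the dyes were exchanged within each pair of tissues, and the exchanged arrays correlated across all probes at -0.77, -0.64 and -0.86 as deposited, so their sign was turned.

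Probes were named from the platform annotation, updated through gene IDs of GRCm38.p6. Of 21112 annotated probes, 20456 matched by gene ID, 220 by symbol, 248 kept the annotated name and 188 with non-mouse or several symbols were not named. This left 18545 genes, each the mean of its probes. Probes of the same gene could differ, as for Calm3 (-2.62 and -0.23 in epididymis over testis) and Elk4 (-3.40 and 0.21 in testis over SVF). Levels in the 3 tissues came from least squares over the 6 arrays with a dye term. A size rule of 2-fold on both arrays replaced any test. The members, the other lists and the size rule were chosen with earlier results of these data known. Genes named were the members, up to 4 of each list with the largest epididymis ratio in size, and the nearest by profile. Calculations used Python 3.11.15 with pandas 2.3.3, and limma 3.58.1 in R 4.3.3 as an alternative, besides other centring, size, probe, array and log base choices. The size rule and loop fit were run on simulated data with independent noise, epididymis alone raised and no dye effect. That run does not cover dye effects or loops that do not close. The number of arrays limits the precision.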

Additional observations from a re-analysis of the deposited data

How the results depend on the processing

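Median centring of each array left each count of members and each median within the spread between arrays. Using single probes, or genes measured on all 6 arrays, could not change these values, since each member had 1 probe with a value on every array. The count of members higher in epididymis than in SVF was 3 and became 1 at 4-fold on both arrays, since Tagln and Myh11 did not reach 4-fold on both arrays, and it was 3 to 5 when a single array was used. On single arrays the medians ran from 2.27 to 2.99 for epididymis over testis, from 0.87 to 1.46 for epididymis over SVF and from -1.70 to -1.23 for testis over SVF. Reading the values as natural logarithms scaled the medians to 3.79, 1.68 and -2.17, by construction. The count of members higher in epididymis than in testis was 4, and it became 5 with natural logarithms and 3 at 4-fold on both arrays. On single arrays this count was 4 or 5. Epididymis was highest for all 6 members when any of the arrays was left out, and the limma fit with a dye term, which measures hybridisation error only, called 3 of them (2-fold with an adjusted p under 0.05 against both tissues). No share of all named genes is given for 4-fold, for a single array, for natural logarithms or for the limma call against both tissues. The counts of members under these rules therefore have no background. No paired analysis was possible because each tissue was represented by 1 RNA sample. Spot signals over background were not analysed here, and with 1 RNA sample per tissue no difference between animals is covered.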
